A study of Mus musculus with 2 samples.

Results

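Spp1 is the gene for osteopontin, and its single row of the 31053 gene rows in the count table is described here across cells kept as macrophages or microglia from mouse optic nerve. The gene was chosen because its levels in these same cells were already known to stand out, so its values below are a description and no test was made of them. Wildtype 129S1/SvlmJ mice of both sexes gave 1 library of cells from optic nerves crushed at 8 weeks of age and taken 2 weeks after crush, at 10 weeks, and 1 library from uninjured nerves at 10 weeks. There were 727 injured cells with 3697992 UMIs in all (unique molecular identifiers, 1 for each transcript captured) and 51 uninjured cells with 87499. With 1 library per group, injury and library cannot be told apart, and the sources used here do not give how many nerves were pooled. Intervals are exact 95% intervals, and limits set by a count of 0 use 3 counts; both cover counting error only.

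Osteopontin is a secreted, heavily phosphorylated glycoprotein of the SIBLING family, first known from bone matrix and also made by activated macrophages and microglia. It carries an Arg-Gly-Asp (RGD) sequence that integrins bind, and proteases and transglutaminases act on it outside the cell. In the injured nervous system Spp1 is one of the transcripts used to mark disease-associated and lipid-laden phagocytes, the cells that take up myelin and cell debris.

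The 778 cells were checked against 11 pan-myeloid markers (among them Cd68, Lyz2, Tyrobp and the C1q chains). The median injured cell held UMIs of 8 of them and the median uninjured cell of 7, while 10 injured and 4 uninjured cells held under 2. No cell barcode occurred in both libraries. One of these 4 uninjured cells, with 11100 UMIs the deepest of its library, held 0 of the 11 markers and gave 91.8% of its UMIs to haemoglobin genes; it holds 12.7% of all uninjured UMIs. The libraries also differed in RNA composition: the median mitochondrial share was 1.10% in injured and 5.93% in uninjured cells, and 6 oligodendrocyte genes summed to 1142 and 8160 CPM. The part of these differences in the ratios between libraries was not tested, but ratios that change without the haemoglobin-rich cell are given.

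Spp1 (ENSMUSG00000029304.14) is a protein-coding gene on the plus strand at chr5:104435118-104441050 in mm10, by GENCODE vM21. The 300 bases around the first of its 2 starts listed by RefSeq (GRCm38.p6, chr5:104434861-104435160, plus strand, 250 bases before to 50 after the start) are shown because transcripts of factors known to act on this gene were measured in the same cells. Capitals mark the letters of 3 motifs that were searched on both strands.
Spp1 promoter: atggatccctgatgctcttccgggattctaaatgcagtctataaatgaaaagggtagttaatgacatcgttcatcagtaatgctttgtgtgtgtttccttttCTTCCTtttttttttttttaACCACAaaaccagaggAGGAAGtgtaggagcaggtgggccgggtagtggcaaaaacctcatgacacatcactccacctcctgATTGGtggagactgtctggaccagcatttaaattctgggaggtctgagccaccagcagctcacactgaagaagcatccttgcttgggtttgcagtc
A RUNX motif (ACCACA) begins 128 bases upstream of the listed start, and the ETS motif AGGAAG occurs at 112 bases upstream and, as CTTCCT on the other strand, at 148. The CCAAT box reads ATTGG here, 46 bases upstream. These letters are common: of 32851 RefSeq promoters of the same length, 16.8% held the RUNX motif, 35.4% the ETS motif and 37.4% CCAAT. The E-box CACGTG (7.15% of promoters), the core bound by Mitf and its relatives, and the AP-1 motif TGANTCA (7.81%), bound by Fos and Jun dimers, had no match in this window. The marked motifs do not overlap each other, and a match shows only that the letters are there.

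Spp1 took 48519 of the injured library's UMIs, a level of 13120.4 CPM (UMIs scaled to a common total; 95% interval 13003.9 to 13237.6), and 8 UMIs of the uninjured library, 91.4 CPM (39.5 to 180). The ratio of the summed levels was 144 (72.8 to 332), 125 without the haemoglobin-rich cell and 92.8 without cells over 15000 UMIs, all of which are injured. All 8 uninjured UMIs lay in 1 cell, so the interval, which takes UMIs as independent, is too narrow for a ratio between cells. That cell was one of the deepest of its library, with 9567 UMIs, and held Spp1 at 836 CPM beside 769 UMIs of Apoe, 56 of C1qa, 210 of Cd74, 4 of P2ry12 and 5 of Siglech. It held no UMI of Gpnmb, Lpl, Fn1, Mrc1 or Tmem119.

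In the injured library 612 cells held at least 1 Spp1 UMI, 84.2% of them (81.3 to 86.8%), against 1 of 51 uninjured cells (1.96%, 0.0496 to 10.4%). The injured cells ranged from 0 to 106331 CPM, with a median of 3540 and an interquartile range of 927 to 10583. With all cells thinned to 500 UMIs (2 uninjured cells had fewer and were left out), 68.4% of 727 injured cells and 0 of 49 uninjured cells held Spp1, and a count of 0 there allows a share of up to 6.12%. The median depth was 1123 UMIs per injured and 888 per uninjured cell, so the groups were close in depth at the middle but not at the top, where 99 injured and 0 uninjured cells passed 15000 UMIs.

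RNA set free by broken cells can give UMIs in cells that do not express a gene, and T cells served as the comparison. The 5 injured cells with at least 2 T cell genes (median 5387 UMIs) held 1 Spp1 UMI in 21770, 45.9 CPM, in 1 of the 5 cells (20%, 0.505 to 71.6%). The 3 T cells among them with at least 5000 UMIs held 0 of 17358 UMIs, which allows up to 173 CPM. Deeper injured phagocytes were therefore read against a level of this order, although 5 cells fix it only loosely. The median injured cell had 1123 UMIs, where 1 free UMI is a larger share, so the level sets no bound for shallower cells.

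Injured cells were sorted by depth and by the share of Malat1, a long noncoding RNA kept in the nucleus. The 144 deep cells (at least 5000 UMIs) held Spp1 at 14200.5 CPM (14064.9 to 14337.1), the 492 shallow Malat1-poor cells (under 1% of UMIs) at 10881 CPM (10612 to 11156) and the 91 shallow Malat1-rich cells at 2247 CPM (2031 to 2480.0). Deep cells of 5000 to 15000 UMIs stood at 7852 CPM, below the Malat1-poor cells, and those over 15000 UMIs at 15262 CPM. The order of the whole kinds by summed counts was deep, then Malat1-poor, then Malat1-rich. The median cells stood at 4248, 3992 and 1018 CPM, so deep and Malat1-poor cells were close by that measure while their interquartile ranges, 990.1 to 13604 and 1232 to 11620.5 CPM, overlapped almost wholly. The Malat1-rich range, 254 to 2699 CPM, overlapped both from below.

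Between the shallow kinds the Malat1-poor level was 4.84-fold higher (4.37 to 5.37), 4.18-fold with cells weighted equally and 3.92-fold between median cells. Thinned to 500 UMIs, 72.0% of Malat1-poor, 45.1% of Malat1-rich and 70.8% of deep cells held Spp1. At matched depth the Malat1-rich cells stood at 3420, 1284 and 2390.0 CPM in cells of 500 to 1000, 1000 to 2000 and 2000 to 5000 UMIs, and the Malat1-poor cells at 7921, 11249 and 13840 CPM. The poor cells were thus higher in each of the 3 depth bins, and only they rose from bin to bin. Among deep cells the order of the sums turned: 61 Malat1-rich cells stood at 16041 CPM and 83 Malat1-poor cells at 13167, while the medians, 3671 and 5548 CPM, kept the order of the shallow cells. The shallow kinds also differed in RNA composition. Mitochondrial genes took a median of 10.7% of UMIs where Malat1 was rich and 0.503% where it was poor, ribosomal protein genes 2.67% and 16.7%, and the part of these differences in the Spp1 levels was not tested. Of the shallow injured cells 59 (10.1%) lay between 0.5 and 2% Malat1, near the divide.

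In the uninjured library the 8 UMIs gave the 4 deep cells 223 CPM (96.1 to 439), and the 17 Malat1-rich and 30 Malat1-poor shallow cells held none, which allows up to 117 and 116 CPM. Without the haemoglobin-rich cell, the other 3 deep cells stood at 322 CPM (139 to 635). Read within each kind, the injured level was 63.8-fold higher in deep cells (32.4 to 148; 44.1-fold without the haemoglobin-rich cell, 22.4 to 102), at least 19.2-fold where Malat1 was rich and at least 94.1-fold where it was poor. The lower bounds set the uninjured kind at 3 counts over its cells. The deep kinds are not matched in depth, since all 4 uninjured deep cells lie at 5000 to 15000 UMIs. The 45 injured cells of that range stood at 7852 CPM, below the 14200.5 CPM of all deep injured cells. The deep ratio is therefore larger than one taken within that range.

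**Figure D1:**
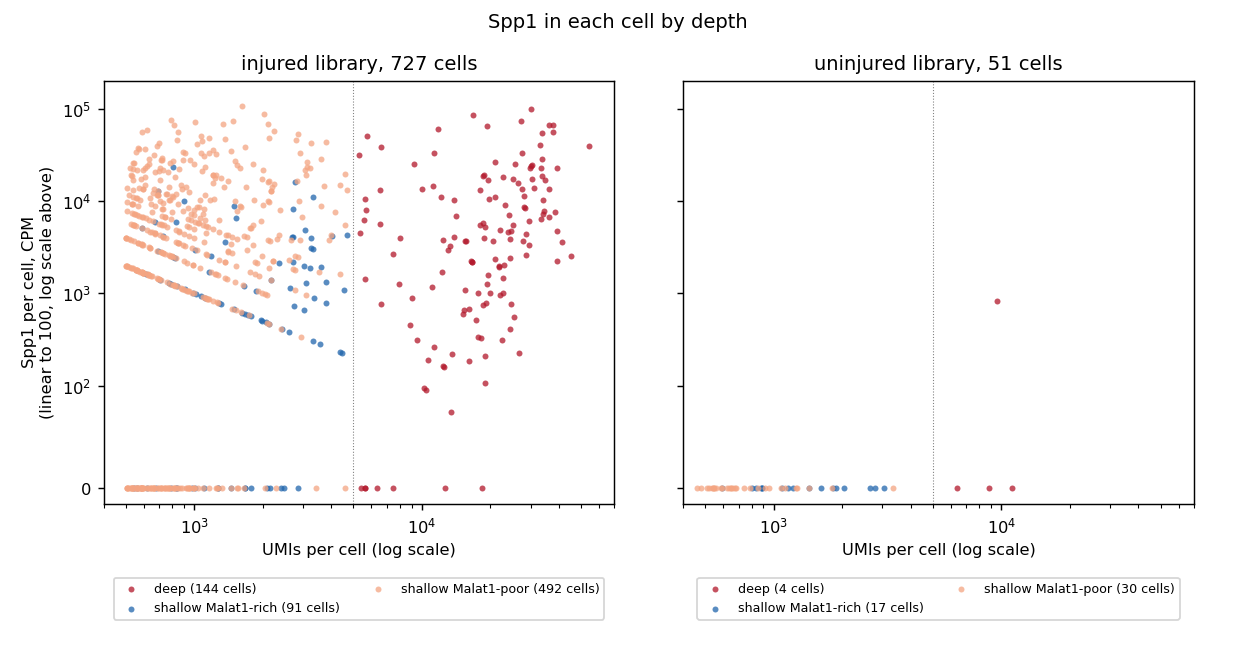
Spp1 level of each cell (CPM, linear up to 100 and log above) against its UMIs (log axis), with the injured library on the left, the uninjured on the right and colours for the kind of cell; the dotted line marks 5000 UMIs. Injured cells reach up to 106331 CPM and 115 of 727 lie at 0, and of the 51 uninjured cells 1 lies above 0, at 836 CPM.

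Over 6 depth bins of injured cells Spp1 stood at 6666, 7863, 9315, 9482, 7852 and 15262 CPM, in cells of under 600, 600 to 1000, 1000 to 2000, 2000 to 5000, 5000 to 15000 and over 15000 UMIs. The share of cells with a UMI was 71.6% in the first bin and 99.0% in the last. The level did not climb steadily, since the bin of 5000 to 15000 UMIs lay below the one before it, and the 99 deepest cells held 79.6% of all Spp1 UMIs beside 68.4% of all UMIs. Uninjured cells under 5000 UMIs held none in any bin.

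**Figure D2:**
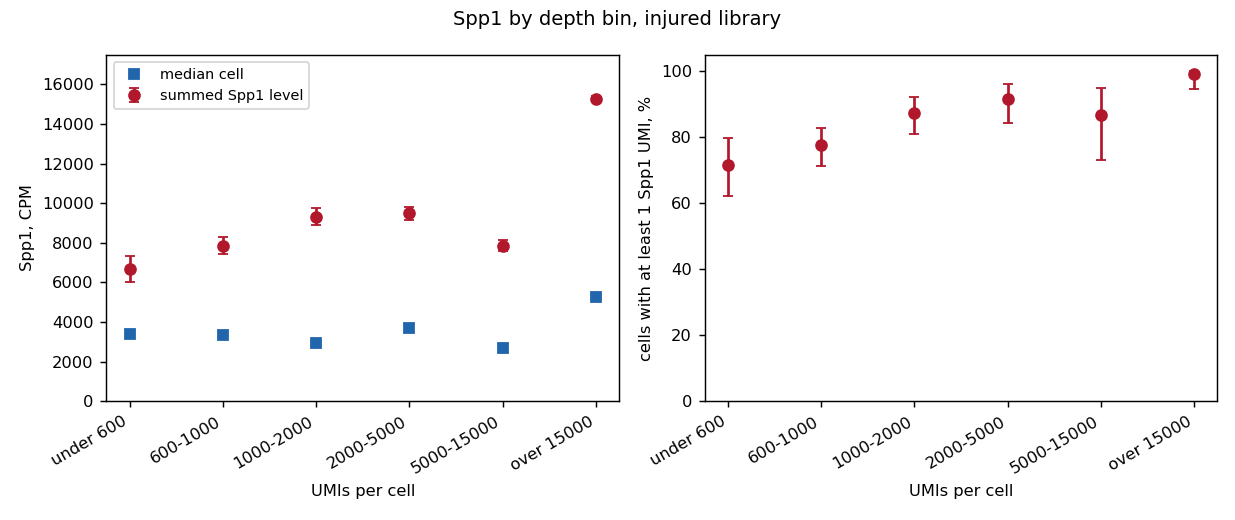
Injured library by bins of UMIs per cell: on the left the summed Spp1 level (circles, CPM, exact Poisson 95% intervals) and the median cell (squares), on the right the share of cells with at least 1 Spp1 UMI (percent, Clopper-Pearson 95% intervals). The summed level is highest, at 15262 CPM, in cells over 15000 UMIs, while the bins below lie between 6666 and 9482 CPM.

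Set against other abundant phagocyte transcripts, Spp1 did not keep 1 ratio across the kinds of injured cell. For each 100 Apoe UMIs (the lipid carrier apolipoprotein E) there were 14.9 of Spp1 in the deep cells, 4.10 in the Malat1-rich and 15.3 in the Malat1-poor ones. For each 100 of Ctsd (the lysosomal protease cathepsin D) there were 101, 21.2 and 74.3. For each 100 of Tyrobp, the adaptor of TREM2, the values were 280.2, 237 and 176, so beside this gene the Malat1-rich cells were not the lowest.

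Spp1 was very unevenly spread among the 144 deep cells. The 15 cells with the most Spp1 UMIs held 57.9% of the Spp1 of deep cells and 11 cells held 50%. In 48 cells (33.3%) Spp1 took at least 1% of all UMIs and in 10 at least 5%, with a highest share of 9.91% (2999 of 30251 UMIs). The 90th percentile of cells was 167 times the 10th. The variance was 566 times that of counting noise, and the squared coefficient of variation above that noise was 2.16. With all cells thinned to 5000 UMIs it was 2.41, beside a median of 0.240 over 569 genes with a mean of at least 1 UMI, and 19 of these genes exceeded Spp1. They include the chemokine Cxcl13 (14.8), the MHC class II genes H2-Eb1 (10.7) and H2-Aa (9.38), Cd74 (7.22), the invariant chain of MHC class II, and Il1b (3.47). The shallow kinds had a like spread, 1.71 where Malat1 was rich and 2.06 where it was poor, and 28.7% of Malat1-poor cells gave Spp1 at least 1% of their UMIs against 4.40% of Malat1-rich cells. Across deep cells the Spp1 level had a Spearman correlation (rho) of 0.40 with the UMIs of the cell and of -0.23 with the Malat1 share.

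Split into 4 quartiles of 36 cells by Spp1, deep cells ran from 0 to 953 CPM (median 245), 1002 to 4114 (2325), 4381 to 13566 (7386) and 13718 to 99137 CPM (25848). The highest quartile held 80.0% of the Spp1 UMIs and the lowest 0.479%. Depth moved with this order, with median UMIs of 14380.5, 18992, 23526 and 27433. The lowest quartile also held all 3 deep T cells and 6 of the 7 cells with under 10 C1q UMIs. The 7 deep cells without any Spp1 UMI, of 5387 to 18441 UMIs each, included those 3 T cells, and 6 of the 7 had under 10 C1q UMIs. Because of this, values over the 137 deep cells with at least 10 C1q UMIs are given where they change a count or a call, a choice made after the data were seen; in these cells Spp1 stood at 14491 CPM.

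Genes were ranked by how closely their level followed that of Spp1 over the 144 deep injured cells, as rho of CPM with Spp1 left out of the total. The cells come from 1 library and share its depth and free RNA, so rho is a description without a p. Of 6237 genes seen in at least 20% of these cells, 150 (2.41%) had a rho of at least 0.3 and 51 (0.818%) of -0.3 or less. In the cells with at least 10 C1q UMIs 103 genes of 6236 (1.65%) rose and 39 (0.625%) fell by the same measure, and 93 and 28 of them are among the 150 and the 51. With the UMIs per cell held fixed 67 genes rose, all 67 among the 150, and 68 fell, 41 of them among the 51. After thinning to 5000 UMIs, 171 of 2439 genes rose and 8 fell.

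The 12 genes most like Spp1 had a rho of 0.52 to 0.59 and were positive in cells of 5000 to 15000 UMIs (0.42 to 0.72) and in cells over 15000 UMIs (0.35 to 0.60). Cxcl14, a chemokine, led with 0.59, and its mean level was 519, 943, 1330.3 and 2057 CPM from the lowest to the highest Spp1 quartile. Pkm (0.58), the glycolytic enzyme pyruvate kinase, went from 314 to 908 CPM between the outer quartiles, and Ucp2 (0.58), a mitochondrial carrier, from 669 to 1670 CPM. The cysteine proteases Ctsl (0.58) and Ctsb (0.57) of the lysosome went from 1305 to 3538 and from 4253 to 10003.5 CPM. Cd9 (0.57), a tetraspanin of the cell surface, went from 1260.2 to 3396 CPM. The remaining 6 began with Lrpap1 (0.57), a chaperone of LDL receptor-family proteins, and Dpp7 (0.54), a lysosomal dipeptidyl peptidase. Next came Capg (0.54), an actin-capping protein, and Syngr1 (0.54), a vesicle membrane protein. The last were Myo1e (0.52), a myosin of membrane-bound actin, and Gusb (0.52), lysosomal beta-glucuronidase. Over all 12 genes the outer quartiles differed 2.35-fold to 3.97-fold, far less than the Spp1 levels that define the quartiles.

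The 12 genes at the other end had a rho of -0.50 to -0.34 and were negative in both depth ranges. Ifngr1, a chain of the interferon-gamma receptor, was lowest at -0.50, and its mean fell from 517 CPM in the lowest Spp1 quartile through 314 and 268 to 174 CPM in the highest. Ighm (-0.41), an immunoglobulin heavy chain, was seen in 44.4% of the lowest and 11.1% of the highest quartile, at 70.8 and 7.72 CPM. Neurl3 (-0.34) went from 287 to 48.3 CPM, Nrip1 (-0.36), a nuclear corepressor, from 343 to 79.1 CPM, and Zfp36l2 (-0.39), an mRNA-decay factor, from 345 to 93.3 CPM. Rbm39 (-0.41), Srsf5 (-0.35) and Srrm2 (-0.36) act in splicing. The others were Gmfg (-0.38), an actin regulator, Pfdn5 (-0.37), a subunit of the prefoldin chaperone, and the chromatin proteins Ankrd11 (-0.37) and Hmgb2 (-0.37). In the cells with at least 10 C1q UMIs the 12 genes lay between -0.47 and -0.30. Thinned to 5000 UMIs, however, 1 of the 11 that had a value, Ifngr1 (-0.36), still passed -0.3, and the other 10 lay between -0.20 and -0.11, while all 12 genes of the upper end still passed (0.37 to 0.66).

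Of 79 ribosomal protein genes that passed the filter 25 (31.6%) fell and 0 rose, with a median rho of -0.25, and their summed share of UMIs was 15.9% in the lowest and 12.8% in the highest quartile. The count of ribosomal genes that fell was 11 in the cells with at least 10 C1q UMIs, 41 with UMIs per cell held fixed and 3 after thinning to 5000 UMIs. Of 13 mitochondrial genes 0 passed either way.

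**Figure D3:**
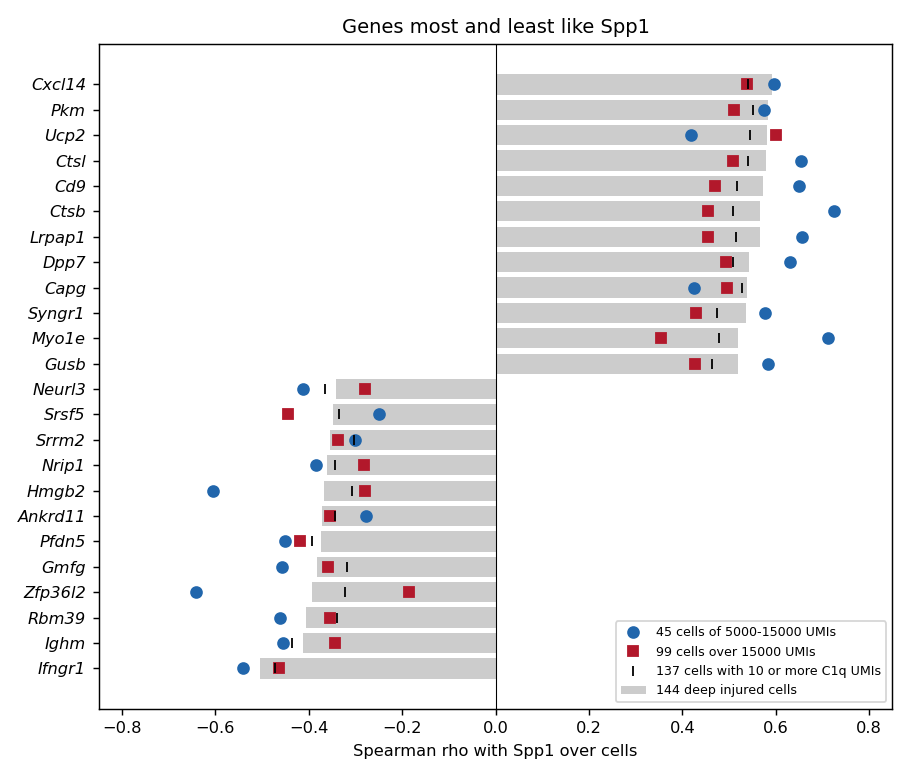
Spearman rho with Spp1 over deep injured cells for the 12 highest and the 12 lowest genes: grey bars over all 144 cells, circles over cells of 5000 to 15000 UMIs, squares over cells above 15000 UMIs, ticks over the 137 cells with 10 or more C1q UMIs. All markers of the upper 12 genes lie right of 0 and all of the lower 12 left of it, a direction that the choice of genes by the bars favours.

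The groups of genes around Spp1 are given as counts beside the 2.41% and 0.818% of all genes. Of 15 lysosomal genes 8 rose with Spp1 and 0 fell (median rho 0.40). Besides the cathepsins these include Cd68 (0.51; 567 to 1213 CPM between the outer quartiles), a glycoprotein of the phagocyte lysosome, and Cd63 (0.50; 1566 to 3269 CPM), a tetraspanin of late endosomes. The summed level of the list was 25511, 36974, 52645 and 51935 CPM over the quartiles, so it did not differ much between the upper pair. The same sum had a rho of 0.57 with Spp1 among shallow Malat1-rich cells and 0.52 among Malat1-poor ones.

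Of 20 genes of disease-associated microglia, a list that holds Ctsb, Ctsl, Ctsd and Cd9 as well, 14 rose and 0 fell (median 0.40), and 13 rose in the cells with at least 10 C1q UMIs. Lpl, lipoprotein lipase, had a rho of 0.51 and went from 416 to 1338 CPM. Divided at the median of Lpl, the 72 deep cells at or above it held Spp1 at 19467 CPM (median cell 8849). The 72 below it stood at 6699 CPM (median cell 1522). The interquartile ranges, 3711 to 25165 and 333 to 4904 CPM, overlapped. Their median depth also differed, at 25202 and 16573 UMIs, and its part in the Spp1 levels was not tested. Apoe did not pass (-0.06), and its rho was 0.36 in cells of 5000 to 15000 UMIs and -0.32 in cells over 15000 UMIs. Of 20 genes of lipid and cholesterol handling 16 passed the filter and 4 rose (median 0.23), namely Lpl, the scavenger receptor Msr1 (0.46), the fatty acid binding protein Fabp5 (0.33) and lysosomal acid lipase Lipa (0.31). In the cells with at least 10 C1q UMIs 2 of the 4 still rose, while Fabp5 (0.26) and Lipa (0.22) did not pass. With UMIs per cell held fixed Fabp5 (0.23) and Lipa (0.20) did not pass either.

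Of 11 glycolytic genes 6 rose and 0 fell (median 0.34). Next to Pkm they include Pgam1 (0.48; 203 to 511 CPM), Aldoa (0.46; 560 to 1171 CPM) and Gapdh (0.45; 987 to 2091 CPM), while Hk2 had -0.05. With UMIs per cell held fixed Gapdh had 0.297 and did not pass. The glycolytic sum over the quartiles was 3266, 3843, 4924 and 6788 CPM. In shallow cells this sum was nearly unrelated to Spp1, with a rho of 0.17 among Malat1-rich and 0.08 among Malat1-poor cells.

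All 3 chains of complement C1q rose (C1qc 0.41, C1qb 0.38, C1qa 0.37), and their sum was 14964, 20094, 22321 and 25213 CPM over the quartiles. In the cells with at least 10 C1q UMIs, chosen on these same genes, 1 of the 3 passed. Of 11 pan-myeloid markers 6 rose (4 in the cells with at least 10 C1q UMIs). These are the 3 C1q chains, Cd68 of the lysosomal list, Tyrobp (0.41) and Fcer1g (0.40). With UMIs per cell held fixed Tyrobp (0.28) and Fcer1g (0.29) did not pass. Csf1r, the receptor for colony-stimulating factor, turned with depth (0.39 in cells of 5000 to 15000 UMIs and -0.43 above). None of the 4 border-associated macrophage genes passing the filter rose or fell, nor did any of the 8 that passed it in the cytokine and chemokine list. That list does not hold Cxcl14, which led the ranking, or Csf1 (0.48), Mif (0.34) and Tgfb1 (0.33), which also rose. In the cells with at least 10 C1q UMIs Mif (0.26) and Tgfb1 (0.28) did not pass. For markers of other cell types, 1 gene passed the filter and rose for oligodendrocyte precursors (Cspg4, 0.37) and 1 for endothelium (Flt1, 0.32). Flt1 had 0.27 in the cells with at least 10 C1q UMIs and 0.24 with UMIs per cell held fixed. Pdgfra was too scarce to enter and Cldn5 was at 0. Of 6 oligodendrocyte genes 4 passed the filter and 0 rose or fell, and their summed mean was 388, 289, 282 and 446 CPM over the quartiles.

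Of 8 MHC class II genes 6 passed the filter and 2 fell, Cd74 (-0.30) and H2-Eb1 (-0.30). Their summed mean was 21063 CPM in the lowest and 2337 in the highest quartile, but the median cell stood at 1041 and 377 CPM, since 13 deep cells with at least 20000 CPM of these genes fell mostly in the lowest quartile (9, 2, 1 and 1 over the quartiles). These 13 cells, 11 of which held at least 10 C1q UMIs, had a median of 221 CPM of Spp1 (0 to 14684). In the cells with at least 10 C1q UMIs 3 MHC class II genes passed, with a median rho of -0.30. With UMIs per cell held fixed Cd74 (-0.22) and H2-Eb1 (-0.21) did not pass. Thinned to 5000 UMIs, Cd74 (-0.31), H2-Eb1 (-0.33), H2-Ab1 (-0.33) and H2-Aa (-0.33) passed, while H2-DMa (0.03) and H2-DMb1 (-0.03) did not.

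**Figure D4:**
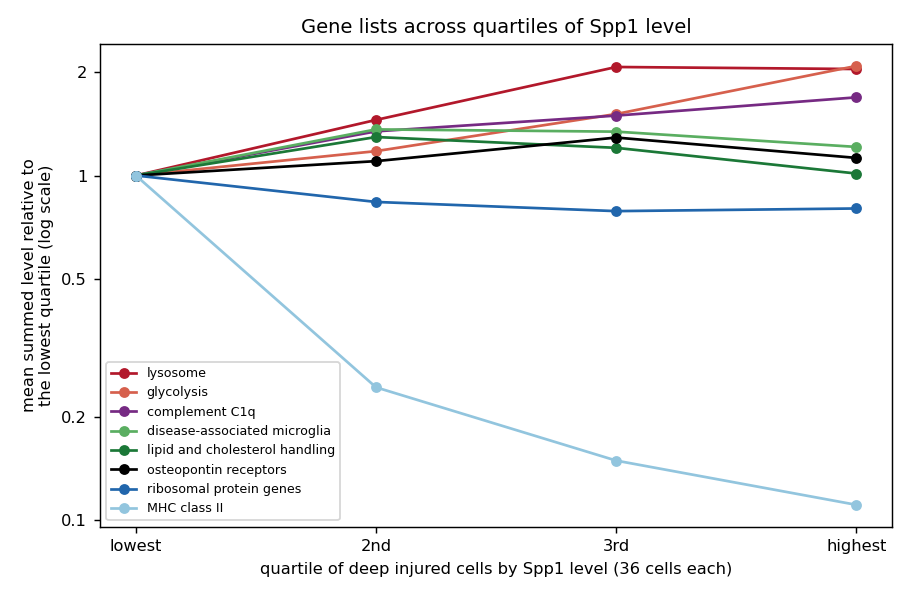
Mean summed level of 8 gene lists in the 4 Spp1 quartiles of 36 deep injured cells, relative to the lowest of them (log axis). Lysosomal genes go from 25511 to 51935 CPM and C1q from 14964 to 25213 CPM, the receptors stay between 1179 and 1519 CPM, and the MHC class II mean falls from 21063 to 2337 CPM.

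The genes of osteopontin's own pathway were compared between the libraries and over the deep cells. Between the libraries, 4021 genes were seen in 10% or more of one library's cells, of which 32.8% were higher in the injured library by 1.5-fold on a scale with a pseudocount of 10 CPM, and 21.8% were lower, with a median log2 ratio of 0.17. This excess of higher genes depended on the scaling: 27.6% were higher and 28.5% lower without the haemoglobin-rich cell (median -0.0057), and 27.1% and 27.1% with the median set to 0. Of the 44 genes in the 5 osteopontin lists 26 were seen in 5% or more of one library's cells, of which 12 (46.2%) were higher and 7 (26.9%) lower; their median was 0.37. Under the same 5% filter, 6680 genes had a median of 0.09, and 30.3% of them passed as higher and 25.3% as lower. Without the haemoglobin-rich cell 11 of the 26 were higher and 7 lower, and the call lost was that of Itga5. These calls take no account of counting error. The exact intervals of Itga5, Acp5, Mitf, Thbs1 and Mfge8 among the 12 higher, and of Tfeb among the 7 lower, include a ratio of 1. Fam20c, Mmp12, Acp5, Thbs1 and Mfge8, with 0 uninjured UMIs, passed the filter through injured cells alone. The shares are therefore not read as an excess in the pathway. The other members of the SIBLING family, Ibsp, Dmp1, Dspp and Mepe, had no UMI in either library.

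Of 10 receptor genes 6 were compared, with 2 higher, 2 lower and a median log2 ratio of -0.16. Itgb1, the integrin beta 1 chain shared by many receptors, was 344 CPM in the injured and 91.4 in the uninjured library, 3.76-fold higher (1.90 to 8.73). Itga5, which pairs with beta 1, was 23.0 and 11.4 CPM and rests on 1 uninjured UMI (ratio 2.01, 0.351 to 80.4). Itgav, the alpha V chain that pairs with beta 3 or beta 5 to bind the RGD sequence, was 41.6 CPM in the injured and 137 in the uninjured library, 3.29-fold lower (1.67 to 5.92). Itga4, the alpha 4 chain of leukocyte integrins, was 45.2 and 103 CPM, 2.28-fold lower (1.02 to 4.43). Its share of cells went the other way, with 12.5% of injured and 7.84% of uninjured cells. In injured shallow Malat1-rich cells Itgav stood at 153 and Itga4 at 221 CPM, above the uninjured library. That kind made up 12.5% of injured and 33.3% of uninjured cells, and its part in these ratios was not tested. Itgb5, the beta 5 chain, was 758 and 743 CPM, a ratio of 1.02 (0.798 to 1.33). Cd44, the non-integrin receptor, was 43.0 and 57.1 CPM, but with cells weighted equally it was higher in the injured library, at 53.2 and 23.0 CPM. Over the deep cells none of the 6 rose or fell with Spp1, with rho from -0.10 for Itga4 to 0.21 for Itga5. Itgb3 (22 injured UMIs) and Itga9 (15) were too scarce to compare, and Itgb6 and Itga8 had no UMI.

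Of 10 genes whose products modify or cut osteopontin 6 were compared, with 5 higher and 1 lower. Fam20c, the Golgi kinase that phosphorylates secreted proteins, had 325 injured and 0 uninjured UMIs and was at least 2.56-fold higher, and over deep cells it rose with Spp1 (0.50; 44.5 to 175 CPM between the outer quartiles). Plau, the urokinase-type plasminogen activator, was 153 and 22.9 CPM on 2 uninjured UMIs (ratio 6.67, 1.84 to 55.2), and also rose with Spp1 (0.50; 36.7 to 336 CPM). Ctsd was 14034 and 3177 CPM, 4.42-fold higher (3.93 to 4.99), with a rho of 0.49. Mmp12, a macrophage metalloprotease, had 470 and 0 UMIs, at least 3.71-fold higher, but was seen in 5.36% of injured cells and was too scarce among deep cells to rank. Acp5, tartrate-resistant acid phosphatase, which can dephosphorylate osteopontin, had 140 and 0 UMIs and was called higher, but the exact interval of its ratio begins at 0.886, so no direction is given. Tgm2, the transglutaminase that cross-links osteopontin, was 42.5 and 194 CPM, 4.58-fold lower (2.60 to 7.56), with a rho of 0.02. In injured cells it stood at 142 CPM in shallow Malat1-rich, 17.6 in shallow Malat1-poor and 41.3 in deep ones. The part of the mix of these kinds in the ratio was not tested.

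Of 12 regulators of Spp1 transcription 8 were compared, 2 higher and 3 lower, and 0 of 8 rose or fell with Spp1 over deep cells (median rho 0.01). Hif1a, the oxygen-regulated factor, was 374 and 57.1 CPM, 6.54-fold higher (2.80 to 20.2). Mitf, a factor of the E-box family, was called higher on 1 uninjured UMI (3.36, 0.593 to 134), and its relatives Tfe3, 3.36-fold lower (1.70 to 6.04), and Tfeb, on 3 uninjured UMIs, 1.92-fold lower (0.386 to 5.86), were called lower. Jun was 649 and 2297 CPM, 3.54-fold lower (3.05 to 4.09), and its partner Fos was 1539 and 1566 CPM. In injured shallow Malat1-rich, shallow Malat1-poor and deep cells Tfe3 stood at 108, 21.1 and 40.6 CPM and Jun at 675, 193 and 735 CPM. The part of the mix of these kinds in their ratios was not tested. Spi1, the myeloid ETS factor PU.1, was 293 and 217 CPM, a ratio of 1.35 (0.859 to 2.25), with a rho of 0.10. Nr1h2, a liver X receptor, was 45.2 and 34.3 CPM. Runx2 (28 injured and 0 uninjured UMIs) and Nr1h3 (21 and 0) were too scarce to compare.

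Among 8 other genes whose products carry an RGD sequence or a like integrin-binding site, Fn1, fibronectin, was 1114 and 149 CPM, 7.50-fold higher (4.38 to 14.1). Over deep cells Fn1 rose with Spp1 (0.44) from 588 to 1853 CPM, the only gene of the 5 that passed the filter in this list to do so. Thbs1, thrombospondin 1, had 152 and 0 UMIs and was called higher, but the exact interval of its ratio begins at 0.963, so no direction is given. Mfge8, which bridges apoptotic cells to phagocytes, had 90 and 0 UMIs and passed the rule of size, but at 24.3 CPM it is below the 34.3 CPM that an uninjured count of 0 allows, and no direction is given. Edil3, a relative of Mfge8, was called lower on 16 and 3 UMIs (7.92-fold, 1.48 to 27.7). Tgfbi, a matrix protein, was 87.1 and 91.4 CPM and Npnt, nephronectin, 30.6 and 34.3 CPM.

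**Figure D5:**
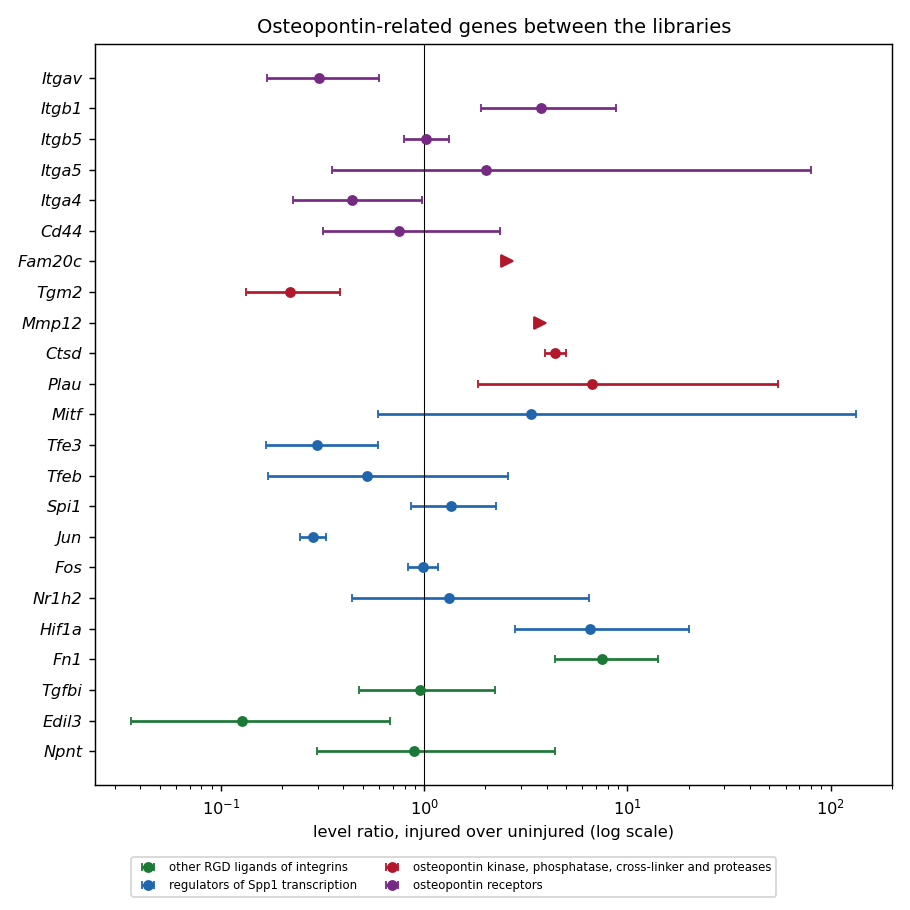
Ratio of injured to uninjured level (summed CPM, log axis) for compared genes of the osteopontin lists, with exact conditional binomial 95% intervals, and triangles for lower bounds against 3 counts where the uninjured library had 0 UMIs. Acp5, Thbs1 and Mfge8, with 0 uninjured UMIs and no direction, are not drawn. Fn1, Plau, Hif1a, Ctsd and Itgb1 lie above 1 and Tgm2, Jun, Tfe3, Itgav, Itga4 and Edil3 below it, with intervals that exclude 1.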

How the data were processed

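Cells of dissected, digested and triturated optic nerve were captured with 10x Genomics v2 chemistry, per the labels. Per the submitters' processing notes, bcl2fastq 2.17.1.14, Cell Ranger 1.3, Seurat 4.0.3 and the mm10 build were used. The authors deposited UMI counts, whole numbers without normalization, for 778 cells that they had kept as macrophages or microglia with 200 to 6500 genes. The sources used here do not give how these cells were selected. Of 31053 rows 14428 had a UMI, and 26 date-like names (0.0506% of injured UMIs) stayed in the totals only.

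Summed counts were scaled to CPM. Levels carry exact Poisson, shares Clopper-Pearson and ratios exact conditional binomial intervals, and 0 counts were set to 3 for lower bounds. Log2 ratios used a pseudocount of 10 CPM, less than the 34.3 CPM that an uninjured count of 0 allows. Doublets were not removed. As each group had 1 library, nothing was tested. The gene, the 26 gene lists (207 genes), the divides and the choices below were fixed with earlier results of these data known. Named genes are Spp1, all members of the osteopontin lists that passed the filter, the 12 highest and 12 lowest by rho without mitochondrial, ribosomal and predicted genes, and of each other list members with the highest and lowest rho; genes named for their spread, Spp1 ratios and scarce list members were chosen after their values were seen. A few results under this rule are not reported here. Python 3.11.15, numpy 2.4.6, scipy 1.17.1, pandas 2.3.3 and matplotlib 3.10.9 were used. The calling steps were run on simulated counts with planted changes. Those counts held counting noise alone, so they give no error rate for the calls in these data. Alternatives tried were other depth and Malat1 divides, equal weights, thinning, other correlations, filters and pseudocounts.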

Additional observations from a re-analysis of the deposited data

How the results depend on the processing

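No paired analysis was possible because each group had 1 sample, and none could be left out. The library ratio of 144 was 559 with cells weighted equally, at least 341 without the 1 uninjured cell that held Spp1, 125 without the haemoglobin-rich cell, 92.8 without cells over 15000 UMIs and at least 74.2 after thinning. The injured share of cells was 68.4% after thinning and 70.7% at 2 or more UMIs, and the uninjured share was 0 after thinning. The deep level was 13923 and 14515 CPM with the depth divide at 3000 and 10000 UMIs and 11798 with equal weights. The Malat1-rich level was 2503 CPM with the Malat1 divide at 0.5% and 3464 with depth divided at 10000 UMIs; the Malat1-poor level was 11224 and 10338 CPM with the divide at 0.5 and 2%, 10327 with depth divided at 3000 UMIs and 9670.5 with equal weights, so the order of the kinds held under these settings. Genes that rose with Spp1 numbered 150, and 243 by Pearson correlation, 67 with UMIs fixed, 254 in cells of 5000 to 15000 UMIs and 415 in Malat1-rich deep cells. Genes that fell numbered 51, and 29, 8 (thinned to 5000 UMIs), 321 and 164 in the Pearson, thinned, depth and Malat1-rich settings. Between libraries 1317 of 4021 genes were higher and 876 lower, and 798 and 583 with a pseudocount of 50 CPM. Without the haemoglobin-rich cell 1134 and 1171 of 4114 were called, and 1091 and 1089 of 4021 with the median set to 0. Among all genes with a UMI, a larger set, 2982 were higher and 3101 lower. The cause of these moves was not tested. For the 24 genes highest and lowest by rho no value changed direction, 167 values kept their call and 24 lost it, all 24 among the falling genes. Other list genes were not run under every alternative, and Apoe and Csf1r changed sign between depth ranges. With UMIs per cell held fixed, 67 of the 150 rising and 41 of the 51 falling genes kept their call. Among the list members named singly, Gapdh, Tyrobp, Fcer1g, Fabp5, Lipa, Flt1, Cd74 and H2-Eb1 lost theirs. Thinned to 5000 UMIs, Cd74 (-0.31) and H2-Eb1 (-0.33) kept their call. For list members not named, and so for the counts per list, values with UMIs held fixed are not given. The 51 uninjured cells limit every comparison between libraries.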

Other observations

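In 492 shallow Malat1-poor injured cells, divided into 4 quartiles of 123 cells by Spp1 with median UMIs of 838, 796, 803 and 957, the lysosomal genes summed to 20661, 29457, 33267 and 51457 CPM. The C1q chains went from 13103 CPM in the lowest to 24732 in the highest of these quartiles. The glycolytic genes stood at 6481 and 6431 CPM in the outer quartiles.

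Markers of neutrophils (at least 2 of S100a8, S100a9, Retnlg and Csf3r) were found in 22 injured cells with a median of 23290 UMIs. All 22 held Csf3r, which 74.3% of all deep injured cells also held, and 21 held S100a8, while S100a9 was seen in 2 and Retnlg in 0. Of the 22, 21 held C1q UMIs, all 22 held Spp1, and Spp1 stood at 18697 CPM in them. In 4 injured cells with fibroblast markers Spp1 stood at 12255 CPM, and in 7 with astrocyte markers at 6678 CPM, and all 11 held C1q UMIs.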
